A study of Mus musculus with 4 samples.

Results

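The inner root sheath keratins and trichohyalin were read gene by gene in the scRNA-Seq libraries of the mouse digit. The 9 genes were taken by symbol: the type I keratins Krt25, Krt26, Krt27 and Krt28, the type II keratins Krt71, Krt72, Krt73 and Krt74, and Tchh, which encodes trichohyalin. Of these, 8 had a row among the 33696 genes of the count tables; Krt74, which RefSeq lists as a transcribed pseudogene in the mouse, was not analysed here. Levels are given as CPM, the UMIs (unique molecular identifiers, 1 per captured RNA molecule) of a gene divided by all UMIs of the same cells and scaled to a fixed total. They are 3′ tag counts and were not divided by gene length, so levels of different genes are set side by side only as molecules counted.

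The inner root sheath (IRS) is the sleeve of keratinocytes that surrounds and moulds the growing hair shaft inside the follicle. It has a Henle layer, a Huxley layer and a cuticle, and its cells derive from the matrix of the hair bulb. Type I and type II keratins pair to form its filaments, and trichohyalin, which is deposited as granules and then modified by peptidylarginine deiminases and cross-linked by transglutaminases, hardens the sheath. Krt25, Krt27, Krt28 and Krt71 are known from all layers, Krt26, Krt72 and Krt73 from the cuticle, and Krt74 from the Huxley layer.

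There were 4 libraries, each pooled from the hind limb digits of 10 female C57BL/6 mice (C57BL/6J in the methods) aged 6 to 8 weeks. The SAR131675 library came from mice fed this VEGFR3 inhibitor at 30 mg per kg chow, for 8 days by the series' design text and from before the amputation onwards by the methods, and the diet control library from mice on matched chow. The LNR library came from the limb whose lymph nodes were removed. The sham library came from the opposite limb, used as sham by the study's main text, although its label reads as untreated. By the methods, the tip of P3, the terminal phalanx, was amputated on digits 2 and 4. Digits 2 to 4 were later collected, cut through the proximal part of P2, the next phalanx. The pools can therefore hold tissue away from the amputation and an unamputated digit. The diet pair was collected at 8 days post amputation (DPA) by the study's main text, although its legends do not all give the same day. The day given with gene expression of the LNR pair is also 8 DPA. Each condition was 1 library, and each library its own batch, so condition and batch cannot be told apart, no test between conditions was possible, and each pool carries no information on mouse-to-mouse spread. The 95% intervals below cover counting error only.

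The libraries held 21669 to 38464 barcodes, of which 19827 to 29076 passed the limits of 200 to 5500 genes, at most 30000 UMIs and at most 10% mitochondrial UMIs (kept cells). These limits were published for LNR and sham, and the diet pair was held to them too. Median depth was 5725 and 5851 UMIs per kept cell in LNR and sham, and 11316 and 10712 in SAR131675 and diet control. The same barcode sequence occurred in both libraries of a pair 130 times for LNR and sham and 348 times for SAR131675 and diet control. Scrublet called 1.01% to 8.12% of the kept cells doublets, against 15.9% to 23.3% expected at an assumed 0.8% per 1000 kept cells. A cluster of 387 sham and 3 LNR cells, called the mixed cluster, was led by S100a3, Krt71, Wfdc21, Krt25 and Slurp1 and scored high for volar keratinocyte, erythroid and suprabasal markers together. When the epithelium was clustered again, a finer cluster of 390 sham and 7 LNR cells was led by Prg4, Col1a1, S100a8 and S100a9, genes of connective tissue and of neutrophils. The main LNR and sham results are given with and without the mixed cluster.

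The sequences just upstream of the transcription start of the members that lead the results are shown because these genes were detected in the same cells. They are the 250 bases before the RefSeq start (build GRCm38.p6, 8 of the 9 genes matched), written 5′ to 3′ along the gene's strand: Krt25 at chr11:99322952-99323201, Krt28 at chr11:99374904-99375153, Krt71 at chr15:101743098-101743347 and Krt73 at chr15:101802361-101802610, all on the minus strand, and Tchh at chr3:93442080-93442329 on the plus strand. Capitals mark motifs that were searched on both strands. The TATA box, which positions the start of transcription in many promoters of strongly expressed genes, was searched as TATAAA. The motif known for GATA factors such as Gata3 was searched as AGATAA. The motif known for Lef1 and its relatives in Wnt signalling was searched as CTTTGA. The motif known for the AP-1 factors of the epidermis was searched as TGANTCA, in which N is any base.
Krt25: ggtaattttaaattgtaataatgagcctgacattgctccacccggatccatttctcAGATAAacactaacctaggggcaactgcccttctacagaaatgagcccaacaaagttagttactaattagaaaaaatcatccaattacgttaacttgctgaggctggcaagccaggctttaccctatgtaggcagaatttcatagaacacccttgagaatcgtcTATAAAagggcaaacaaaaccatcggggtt
Krt71: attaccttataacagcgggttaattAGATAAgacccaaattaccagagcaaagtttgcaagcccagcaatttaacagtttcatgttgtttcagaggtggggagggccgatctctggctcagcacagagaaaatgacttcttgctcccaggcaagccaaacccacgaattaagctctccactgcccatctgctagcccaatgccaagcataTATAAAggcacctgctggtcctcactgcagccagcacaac
Krt28: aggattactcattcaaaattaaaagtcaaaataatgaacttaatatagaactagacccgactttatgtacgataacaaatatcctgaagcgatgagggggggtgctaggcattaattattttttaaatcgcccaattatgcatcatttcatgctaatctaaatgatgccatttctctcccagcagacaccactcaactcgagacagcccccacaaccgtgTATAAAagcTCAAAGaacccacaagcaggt
Krt73: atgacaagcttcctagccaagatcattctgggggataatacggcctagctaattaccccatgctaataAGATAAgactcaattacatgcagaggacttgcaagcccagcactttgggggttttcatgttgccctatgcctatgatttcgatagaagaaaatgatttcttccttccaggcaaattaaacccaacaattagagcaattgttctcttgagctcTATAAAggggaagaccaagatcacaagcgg
Tchh: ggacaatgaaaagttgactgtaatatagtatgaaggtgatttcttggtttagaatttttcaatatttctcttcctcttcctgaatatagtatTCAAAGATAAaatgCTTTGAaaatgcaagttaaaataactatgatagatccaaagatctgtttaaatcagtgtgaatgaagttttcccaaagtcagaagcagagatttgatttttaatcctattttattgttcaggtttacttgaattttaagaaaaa
TATAAA was found in 7 of the 8 windows and in 13.0% of 27025 promoters of the same length, and AGATAA in 5 of 8 against 10.3%. In Krt25, Krt26, Krt28 and Krt73 the TATAAA began exactly 30 bases before the start; in Krt71 it began at 40 and in Krt27 at 15. In Krt72 it lay on the opposite strand alone, 203 bases before the start. Tchh held no TATAAA, and its AGATAA overlaps a CTTTGA match on the other strand. CTTTGA was found in 2 of 8 windows against 14.0% of promoters, and TGANTCA in 0 of 8 against 6.87%. These matches describe the letters in the windows and are not evidence of binding.

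In kept cells Krt25, Krt71 and Tchh were the most counted members in every library. Krt25, a type I keratin known from all IRS layers, stood at 118 CPM in SAR131675 (95% interval 117 to 119.5), 31.4 in diet control (30.8 to 32.1), 31.7 in LNR (30.7 to 32.6) and 86.1 in sham (84.6 to 87.6). Krt71, its type II partner, stood at 98.5, 32.4, 19.0 and 69.5 CPM in the same order. Tchh stood at 99.9, 32.1, 32.2 and 81.4 CPM. For all 3 genes SAR131675 was the highest library and sham the next, and diet control and LNR were low. Orders across pairs, here and below, mix 2 experiments. Their file headers name different Cell Ranger versions, 8.0.1 for the diet pair and 6.1.2 for LNR and sham. The part of processing in such orders was not tested. Within the LNR library the intervals of Krt25 and Tchh (31.3 to 33.2) overlap, so these neighbours in the order do not differ beyond counting error; the same holds for Krt71 (31.7 to 33.0), Tchh (31.5 to 32.8) and Krt25 in diet control.

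The other keratins were counted less often. Krt27 stood at 21.0 CPM in SAR131675, 6.24 in diet control, 6.48 in LNR and 21.0 in sham. Krt28 stood at 24.1, 11.2, 13.5 and 21.7 CPM, and Krt73, a type II keratin of the cuticle, at 23.9, 8.86, 14.0 and 18.8 CPM. Krt28 and Krt73 spanned a narrower range across the 4 libraries than Krt25, Krt27, Krt71 and Tchh did. The cuticle keratins Krt26 and Krt72 were scarce: Krt26 stood at 0.262, 0.0941, 0.203 and 1.26 CPM and Krt72 at 0.147, 0.128, 0.448 and 3.98 CPM, with sham highest for both. In LNR, 62 of the 64 Krt72 UMIs of kept cells came from 1 cell. In sham, 1 cell held 216 of the 599 Krt72 UMIs, and it lay in the cluster named macrophage or monocyte. The 10 highest sham cells held 99.8% of its Krt72 UMIs, and for the 190 Krt26 UMIs the 10 highest held 97.9%.

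**Figure D1:**
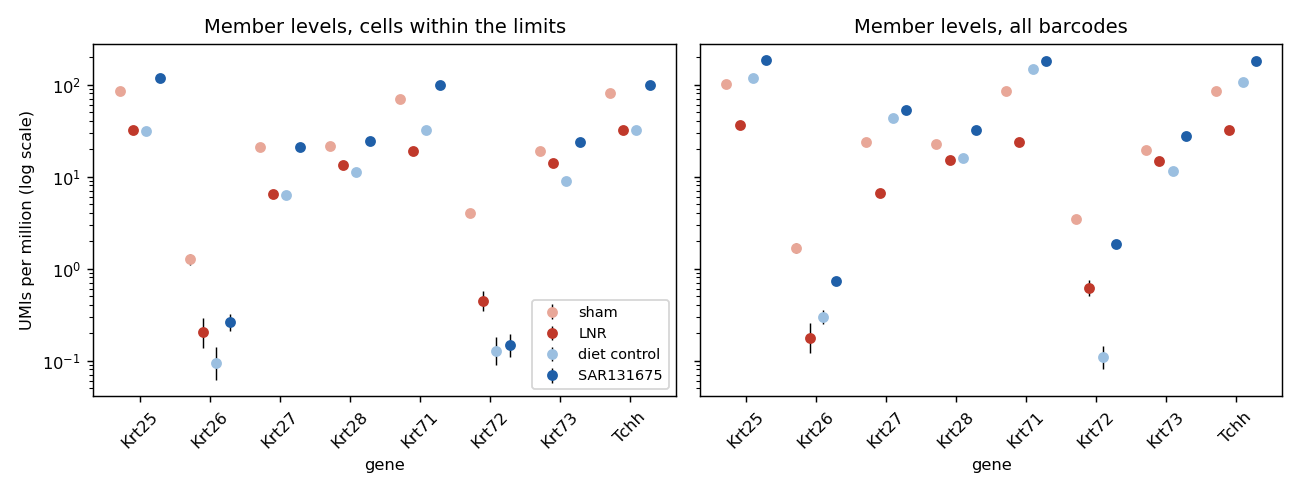
Level of each member in each library, in CPM on a log scale, over cells within the limits (left) and over all barcodes (right); points are libraries and bars are 95% Poisson intervals (counting error only). Krt71 stands 3.04-fold higher in SAR131675 than in diet control on the left and 1.24-fold higher on the right, while Krt28 and Krt73 keep a gap of about the same size.

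Against diet control, the summed level of the 8 members in kept cells was 3.15-fold higher in SAR131675 (386 against 122 CPM; log2 ratio 1.66, counting interval 1.64 to 1.67). Single members were 2.14-fold (Krt28) to 3.77-fold (Krt25) higher, except Krt72, whose log2 ratio of 0.20 had an interval of −0.45 to 0.88. Of the 8 members, 7 stood at least 2-fold higher in SAR131675, beside 1.64% of the 22625 genes with at least 20 UMIs in the pair. The median log2 ratio of the members was 1.54, against −0.01 over all these genes. Without the 1% of cells with the most member UMIs, Krt71 (log2 ratio 0.88), Tchh (0.31) and Krt26 (0.26) fell under 2-fold. Krt25, Krt27, Krt28 and Krt73 then lay between 1.11 (Krt27) and 1.94 (Krt28). This 1% is more than the share of kept cells with at least 3 members in diet control (0.699%) and less than that in SAR131675 (1.57%). The cells left are therefore unlike between these libraries.

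The size of this difference moved with the limits on cells. Barcodes outside the limits held 66.1% of all member UMIs in SAR131675 and 83.6% in diet control, against 42.0% and 40.7% of the UMIs of all genes. Barcodes over 30000 UMIs, 3788 of the 9388 outside the limits in SAR131675 and 2811 of 6801 in diet control, held 62.7% and 81.4% of all member UMIs. Over all barcodes the summed level was 661 CPM in SAR131675 and 443 in diet control, a log2 ratio of 0.58 (0.57 to 0.59). Krt71 then stood at 181 against 146 CPM, 1.24-fold, and Krt27 at 52.8 against 43.6 CPM, 1.21-fold. Krt28 kept a log2 ratio of 0.98 and Krt73 of 1.26, beside 1.10 and 1.43 in kept cells. The count of members at least 2-fold higher was 3 of 8 (Krt26, Krt72 and Krt73), beside 1.81% of genes. Krt72 reached 16.8-fold over all barcodes, but 716 of its 1075 UMIs in SAR131675 came from 1 barcode. The same barcode held 272 of the 433 Krt26 UMIs; without it Krt26 stood at 0.275 CPM in SAR131675 against 0.299 in diet control (log2 ratio −0.12, −0.46 to 0.22), so its place among the 3 rested on that barcode. Krt72 had a log2 ratio of 2.49 (2.05 to 2.95) without it, and of 0.69 (0.18 to 1.21) without the next barcode too, which held 256 of the remaining 359 UMIs, so its place also rested on single barcodes.

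Between LNR and sham the order was the other way round. The summed level in kept cells was 117 CPM in LNR and 304 in sham, 2.59-fold lower in LNR (log2 ratio −1.37, counting interval −1.40 to −1.34). Krt71 was 3.65-fold lower, Krt27 3.24-fold, Krt25 2.72-fold and Tchh 2.53-fold lower, whereas Krt28 was 1.61-fold and Krt73 1.34-fold lower. Without the 1% of cells with the most member UMIs this order of the keratins did not fully hold. The log2 ratios were then −2.98 for Krt25, −2.80 for Krt71 and −1.25 for Krt27, against −1.17 for Krt28 and −1.58 for Krt73. This 1% is more than the share of kept cells with at least 3 members in LNR (0.509%) and less than that in sham (1.77%). The cells left are therefore unlike between LNR and sham, and this setting cannot decide the order. Of the 8 members, 6 stood at least 2-fold lower in LNR, beside 0.906% of 19200 genes. The median log2 ratio of the 8 members was −1.57, against 0.02 over all these genes. Krt26 and Krt72 were among the 6, and their UMIs came from few cells, as given above. Without the 1% of cells with the most member UMIs, Krt26 had 1 UMI in LNR and 7 in sham. Krt72 then had 1 and 2, so for both genes the counts left were too few to compare the libraries. Over all barcodes 6 of 8 again stood at least 2-fold lower, beside 0.792% of genes, and the summed log2 ratio was −1.41. Without the mixed cluster the summed log2 ratio in kept cells was −1.27. Single members then lay between −3.21 (Krt72) and −0.41 (Krt73), and 6 of 8 were at least 2-fold lower. Krt26 and Krt72 were among the 6 over all barcodes and without the mixed cluster too.

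These sums rested on few cells. At least 50% of the member UMIs of the kept cells came from 9 cells in LNR, 9 in sham, 12 in SAR131675 and 12 in diet control, and the highest single cell held 3496, 6639, 13347 and 5762 member UMIs. Without the 10 cells with the most member UMIs in each library (a setting chosen after the values were seen), the summed log2 ratio was 1.66 for SAR131675 over diet control and −1.31 for LNR over sham. Without the 1% of cells with the most member UMIs it was 0.79 and −1.11, although this leaves unlike cells in the libraries of a pair, as given above. When each cell with at least 2000 UMIs was thinned to 2000 UMIs, which weights cells equally, and the others were left out, it was 1.11 and −1.32. This left 27359 of 29076 kept cells in SAR131675, 21777 of 24030 in diet control, 17611 of 19827 in LNR and 18260 of 20669 in sham. In epithelial cells alone the log2 ratios were 1.59 and −1.32. The directions held under all these settings, while the size of the diet difference did not. A higher share of IRS cells in a pool and more RNA per IRS cell cannot be told apart in these sums.

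**Figure D2:**
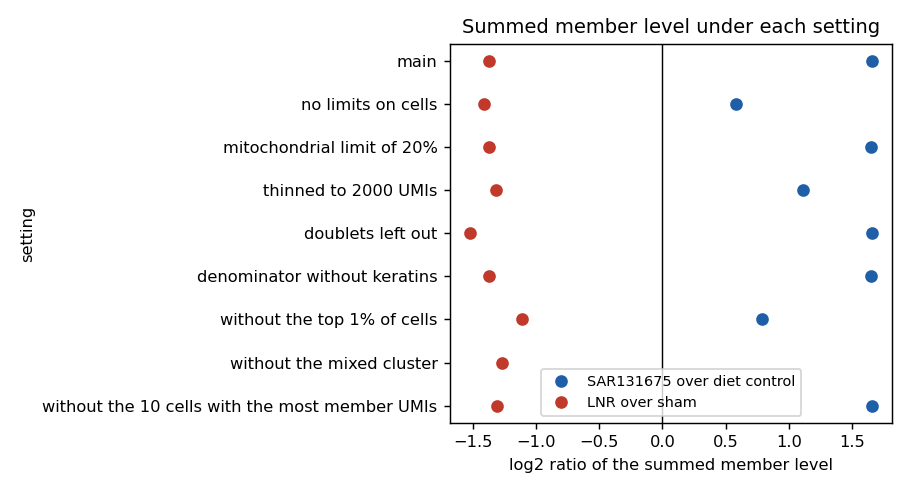
Log2 ratio of the summed member level (x axis) under each setting (y axis) in kept cells, for SAR131675 over diet control and LNR over sham. Every SAR131675 point lies above 0, between 0.58 and 1.66, and every LNR point below 0, between −1.52 and −1.11.

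The number of cells with several members gave a count in which each cell weighs the same. Background RNA can still lift a cell over the limit of 3 members, and its part was not tested. At least 3 of the 8 members were detected in 457 of 29076 kept cells in SAR131675 (1.57%, Clopper-Pearson 95% interval 1.43 to 1.72) and in 168 of 24030 in diet control (0.699%, 0.598 to 0.813). In LNR there were 101 of 19827 (0.509%, 0.415 to 0.619) and in sham 365 of 20669 (1.77%, 1.59 to 1.95). Of the 365 sham cells, 214 lay in the mixed cluster, and without it the sham share was 0.745%. At 2000 UMIs per cell, among the cells that reached this depth, the shares were 0.826% for SAR131675, 0.331% for diet control and 0.335% for LNR. For sham the share was 0.635%, or 0.487% without the mixed cluster. The cells with at least 3 members held 91.7%, 80.3%, 83.8% and 90.9% of the member UMIs of kept cells in SAR131675, diet control, LNR and sham, and 90.5% in sham without the mixed cluster. They were deeper than other cells, with medians of 12375 to 14925 UMIs.

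Clusters were built without the members. In the diet pair the epithelial cluster with the highest summed member level held 1098 SAR131675 and 494 diet control cells, scored highest for hair matrix markers and for IRS markers other than the members, and was led by the members together with Sox5, Prr9, Krt75 and Nhs. In the LNR pair the corresponding cluster held 342 LNR and 384 sham cells and met no single class name; hair matrix markers scored highest (0.79, as the mean of each marker's level relative to its top cluster), then IRS markers other than the members (0.57), and Krt35 and S100a3 of the hair shaft were among its leading genes. Both are called the follicle cluster here. It held 7246 member CPM in SAR131675, 4493 in diet control, 2465 in LNR and 5641 in sham. These were 84.9%, 80.5%, 61.3% and 55.7% of the member UMIs of kept cells. In the diet pair the follicle cluster includes cells that the clustering of all kept cells named infundibulum, the upper follicle. It made up 3.78% of the kept cells in SAR131675 (3.56 to 4.00), 2.06% in diet control (1.88 to 2.24), 1.72% in LNR (1.55 to 1.92) and 1.86% in sham (1.68 to 2.05). The LNR and sham shares overlap within counting error, while the 2 diet shares do not. Both the diet order and the sham value rested on the clustering: with each library clustered alone, the epithelial cluster with the highest summed member level made up 2.65% of SAR131675 and 2.83% of diet control cells, and held 13.2% of the sham member UMIs.

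Many cells of the follicle cluster had no member. In SAR131675, 297 of its 1098 cells lacked any member UMI, as did 202 of 494 in diet control, 112 of 342 in LNR and 131 of 384 in sham. At least 3 members were found in 356, 116, 78 and 104 cells, which are called member-rich cells below. Among these, Krt28 was detected most often, in 96.1% to 97.1% of cells in the 4 libraries, and Krt25 in 87.9% to 92.4%. Krt73 was detected in 56.7% to 66.7% and Krt71 in 52.6% to 62.9%. Tchh was detected in only 15.4% of the LNR cells, 30.8% of sham, 37.6% of SAR131675 and 44.8% of diet control cells, so most member-rich cells had keratin UMIs without a trichohyalin UMI. Krt26 and Krt72 were detected in 2.56% to 7.69%.

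Across epithelial cells the closest pair was Krt25 with Krt71 (mean Pearson r 0.76 over the 4 libraries, 0.73 to 0.79), then Krt28 with Krt73 (0.71, 0.68 to 0.75). Tchh followed Krt71 best (0.36, 0.17 to 0.43), and Krt26 followed Krt72 (0.46, but 0.10 to 0.95 between libraries). These values describe 8569 to 19675 cells that share library and depth, and carry no test.

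Barcodes with at least 3 members fell on a range from Krt28 and Krt73 to Krt25, Krt71 and Tchh. They were split by the share of Krt28 and Krt73 in the UMIs of Krt25, Krt27, Krt28, Krt71 and Krt73, at 20%, a cut set after the values were seen; all barcodes were used except the mixed cluster, since many lie over the limits. At or above 20% there were 585 barcodes in SAR131675, 178 in diet control, 94 in LNR and 112 in sham. Below 20% there were 262, 120, 23 and 74. The second group was smaller but held 80.2%, 87.8%, 51.7% and 67.9% of each library's member UMIs. There the members made up 3.81%, 4.88%, 2.31% and 2.73% of all UMIs, against 0.385%, 0.325%, 0.458% and 0.643% in the first group, and in the highest barcode 46.4% of all UMIs were members (SAR131675). A few strong barcodes carried these sums. The median barcode of the second group held 40.0, 31.0, 171 and 38.5 member UMIs, at median depths of 22618, 15756, 11349 and 17148 UMIs. In the first group it held 18.0, 23.0, 28.5 and 45.5, at 20505, 19760.0, 13449.5 and 11176 UMIs, so in sham the median was higher in the first group.

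Tchh was not used by the split but counted towards the at least 3 members by which barcodes were chosen. Its level is therefore not independent of that choice. Tchh stood at 456 CPM in SAR131675, 149 in diet control, 235 in LNR and 154 in sham in the Krt28 and Krt73 group. In the other group it stood at 11112, 11549, 6376 and 7540.4 CPM, higher in all 4 libraries. Gata3, a transcription factor known to be needed for IRS fate, was higher in the Krt28 and Krt73 group in all 4 libraries (481 against 248, 514 against 286, 428 against 249 and 402 against 213 CPM for SAR131675, diet control, LNR and sham). Lef1, a Wnt effector of the hair matrix, followed the same order (298 against 132, 349.6 against 69.7, 88.6 against 47.3 and 65.9 against 28.0 CPM). So did the proliferation genes Mki67 (515 against 270, 691 against 181, 293 against 199.6 and 177 against 147 CPM) and Top2a. Sprr1a, a cornified envelope precursor, had the reverse order (92.2 against 3192, 40.3 against 4114, 4.37 against 195 and 38.3 against 1949.7 CPM). Padi3, a peptidylarginine deiminase that modifies trichohyalin, was also higher in the Krt25 and Krt71 group in all 4 libraries, at 35.3 to 55.5 against 11.9 to 22.6 CPM. Markers of the infundibulum, the upper follicle, whose clusters Sprr1a also leads, moved with this group: 4 of 4 reported here (Krt79, Defb6, Cst6 and Gata6) were higher there in SAR131675 and diet control and 3 of 4 (all but Gata6) in LNR and sham, and their summed level was 3342 against 609, 1177 against 342, 753 against 179.8 and 1711 against 896 CPM. The part of infundibulum RNA in the difference was not tested. In basal keratinocytes with at most 2 members, where Krt25 is read as background below, Krt25 and Krt71 stood at 4.10 and 4.40 CPM in SAR131675. Krt28 and Krt73 stood at 0.856 and 0.796 CPM there. In LNR these levels were 0.508, 0.660, 0.508 and 0.152 CPM. Barcodes that reach 3 members through such counts can therefore fall in the Krt25 and Krt71 group, and their part was not tested. Gata3, Lef1, Mki67, Top2a, Sprr1a and Padi3 were picked after their values were seen.

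**Figure D3:**
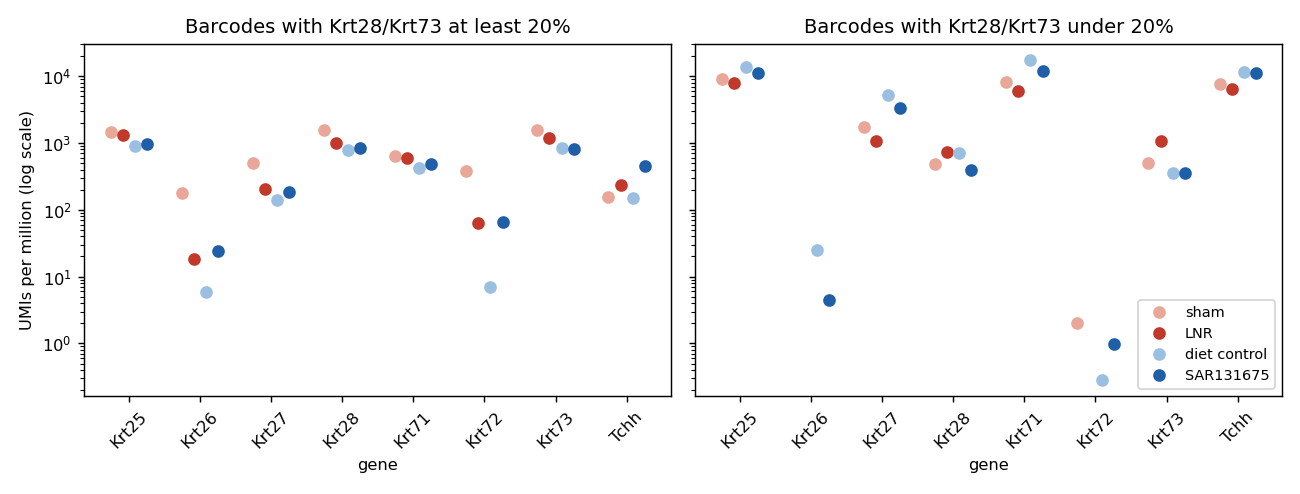
Level of each member in CPM (log scale) in barcodes with at least 3 members, split at a Krt28 and Krt73 share of 20%; points are libraries, and a level of 0 is not drawn. Of the members that the split did not use, Tchh and Krt72 lie on opposite sides and Krt26 does not keep 1 side. Tchh lies at 6376 to 11549 CPM on the right against 149 to 456 on the left. Krt72 lies at 6.87 to 379.6 CPM on the left and at most 2.00 on the right. Krt26 is higher on the left except in diet control (5.96 on the left, 24.6 on the right). These members counted towards the at least 3 by which barcodes were chosen, so their sides are not independent of that choice.

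UMIs of the 4 type I members outnumbered those of the 3 type II members that were read in both groups of every library. The unequal number of genes enters this ratio. The ratio of type I to type II was 1.47, 1.46, 1.38 and 1.41 in the Krt28 and Krt73 group of SAR131675, diet control, LNR and sham. It was 1.22, 1.09, 1.38 and 1.30 in the other group. Type I and type II keratins pair one to one in filaments, and tag counts of different genes are not on one scale of protein.

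The cuticle keratin Krt72 marked a small set of barcodes. At least 5 UMIs of Krt72 were present in 16 barcodes: 6 in SAR131675, 2 in diet control, 2 in LNR and 6 in sham, 10 of them within the limits. The sham barcode with the most, 216 UMIs, lay in the cluster named macrophage or monocyte. Whether it joined RNA of several cells was not tested. All 16 held Krt73 (36 to 630 UMIs), Krt28 (16 to 1890) and Krt27 (10 to 443). Krt71 was at 0 in 12 of the 16 and at most 5 UMIs in the rest, Krt25 ranged from 0 to 29 UMIs with a median of 2.0, and Tchh was at most 1 UMI in 14. Summed over the 16, there were 4624 UMIs of Krt28, 2643 of Krt73, 1728 of Krt72 and 1263 of Krt27, against 85 of Krt25, 12 of Krt71 and 72 of Tchh. Krt26, the type I keratin known from the cuticle, was found in 12 of the 16, with 272 UMIs in the highest. Of the barcodes chosen instead for at least 5 Krt26 UMIs, 3 of 4 in diet control and 4 of 5 in SAR131675 also held Krt71, against 0 of 2 in LNR and 0 of 6 in sham. In these barcodes Krt25 and Krt71, the most counted members elsewhere, were thus nearly missing while Krt27 and Krt28 were present. The barcodes were chosen for Krt72 and are too few to compare libraries. Crym was the gene most like Krt72 across epithelial cells (mean r 0.55, 0.33 to 0.72) and, after Krt72, the gene most like Krt26 (0.37).

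**Figure D4:**
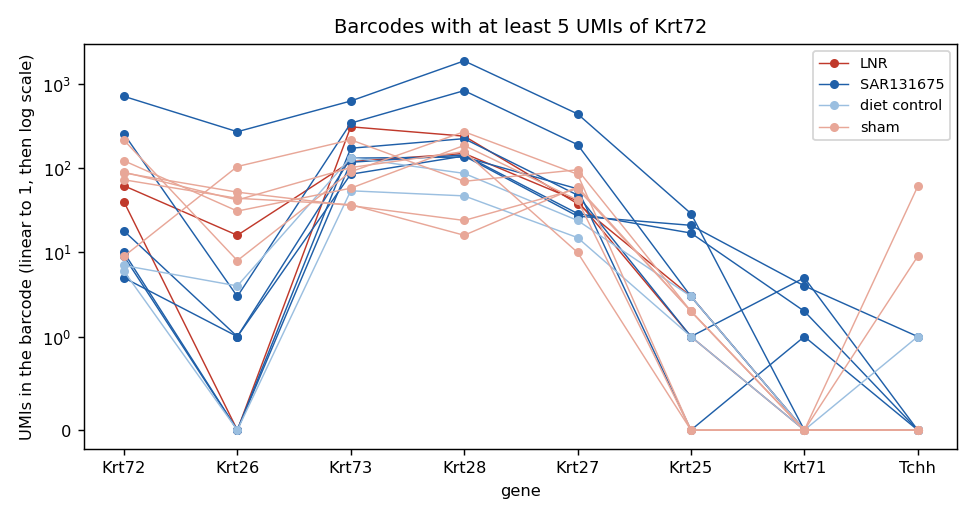
UMIs of each member in the 16 barcodes with at least 5 UMIs of Krt72 (y axis linear to 1, then logarithmic); each line is a barcode, coloured by library. All lines are above 9 for Krt73, Krt28 and Krt27, and all are at 5 or below for Krt71.

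Outside the follicle cluster single cells set some of the sums. The clusters of mixed or no class name held 13268 member UMIs in sham (29.0% of those of its kept cells), 6639 of them in 1 cell, and 1136 (6.77%) in LNR, 8693 (6.63%) in SAR131675 and 3730 (11.5%) in diet control. In the first clustering the infundibulum cluster, the upper follicle, held 2091 member CPM in the diet pair and 1319 in the LNR pair. In the diet pair it held Krt25 at 650.3, Krt71 at 628 and Tchh at 659.6 CPM, Krt28 at 3.75 and Krt73 at 0.697. In the LNR pair these stood at 438, 420.1, 331, 10.2 and 2.58 CPM. In the finer clustering, which the classes here use, the infundibulum cluster of the diet pair held 67.2 member CPM. The LNR cluster that met both infundibulum and suprabasal names held 829. The follicle cluster of the diet pair held 6488, the next highest cluster 728, and the follicle cluster includes cells first named infundibulum. The erythroid cluster of SAR131675 reached 1861 member CPM, of which 4872 of 4981 UMIs came from 1 cell. A fibroblast cell of sham held 2837 of the 3668 member UMIs of its class, and a fibroblast cell of LNR 1753 of 3149. Both cells lay in a cluster of 163 LNR and 195 sham cells that was led by the fibroblast genes Apod, Dcn and Col3a1 but fell within the epithelium; outside it the fibroblasts held 738 member UMIs in LNR and 448 in sham. In cells with at most 2 members, which leaves such cells out, Krt25 was compared over 6 large classes. Over basal, suprabasal and volar keratinocytes, fibroblasts, blood endothelial cells and macrophages or monocytes, it stood at 0.304 to 0.609 CPM in LNR, 1.67 to 5.04 in sham, 1.83 to 3.37 in diet control and 2.92 to 5.16 in SAR131675, so LNR was lowest in these classes. Smaller classes held at most 6 Krt25 UMIs each in LNR and did not all keep this order: LNR neutrophils stood at 3.66 CPM on 6 UMIs and those of diet control at 2.15. Fibroblasts and endothelial cells, which should lack Krt25, reached the level of basal keratinocytes of the same library or lay close to it. A UMI of Krt25 in these classes is therefore read as background.

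Tchh did not follow this pattern. In basal keratinocytes with at most 2 members it stood at 24.9 CPM in SAR131675, 24.7 in diet control, 22.7 in LNR and 27.5 in sham, in contrast to 6.42, 2.94, 5.59 and 8.38 CPM in fibroblasts of the same libraries. Without the fibroblast cluster within the epithelium, fibroblasts stood at 4.29 CPM in LNR and 7.78 in sham. Basal keratinocytes were above fibroblasts in all 4 libraries either way, and Tchh differed little between libraries within basal keratinocytes. A Tchh UMI was present in 13.9% to 21.9% of these basal keratinocytes (median 12410.5, 12066, 7292 and 6761 UMIs per cell) and in 5.55%, 2.74%, 2.25% and 3.54% of fibroblasts (median 11052, 10290.0, 4088 and 4069). In the diet pair the depths of the classes are alike. The ratio of Tchh to Krt25 UMIs also differed: 6.07 (5.24 to 7.07), 12.4 (9.90 to 15.8), 44.7 (24.1 to 93.9) and 10.8 (8.17 to 14.6) in basal keratinocytes, against 1.54 (1.16 to 2.07), 1.49, 13.1 (6.68 to 29.4) and 2.54 (1.89 to 3.44) in fibroblasts. The ratio was higher in basal keratinocytes than in fibroblasts in all 4 libraries, with overlapping intervals in LNR alone. In infundibulum cells of the diet pair, the upper follicle, Tchh was at 39.6 and 38.5 CPM in SAR131675 and diet control, higher than in basal keratinocytes. It was lower in suprabasal keratinocytes (7.90 to 10.1 CPM in the 4 libraries) and in between in volar keratinocytes of the footpad type (12.4 to 16.4 CPM). Some small non-epithelial classes reached these 2 levels: Tchh stood at 15.5 CPM in erythroid cells of SAR131675 and 16.3 in those of diet control, on 41 and 43 UMIs, and at 9.65 to 14.1 CPM in Schwann cells of the 4 libraries, on 5 to 19 UMIs. The erythroid cluster of the LNR pair fell within the epithelium and is left out of this comparison. Levels in suprabasal and volar keratinocytes are therefore not set apart from background here.

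**Figure D5:**
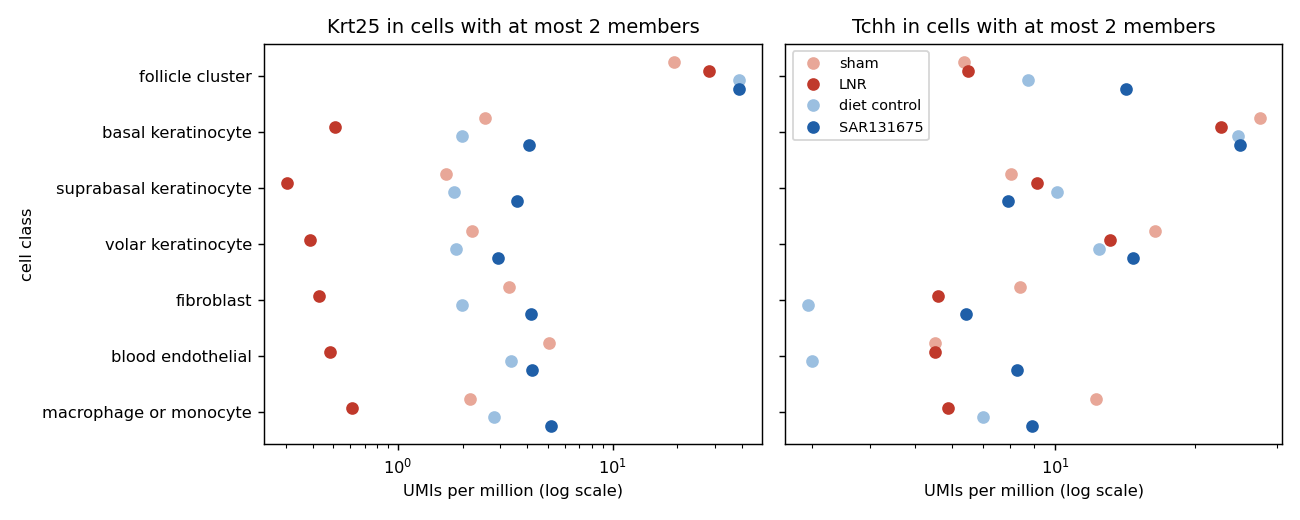
Level of Krt25 (left) and Tchh (right) in CPM (log scales that differ between panels) by cell class, in cells with at most 2 members detected; points are libraries. In the 6 classes shown outside the follicle cluster LNR is lowest for Krt25, at 0.304 to 0.609 CPM, whereas Tchh in basal keratinocytes lies at 22.7 to 27.5 CPM in all 4 libraries.

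Krt28 was also found in sebaceous cells, the lipid-filled gland cells attached to the follicle, and Krt27 in the sebaceous clusters of the first clustering. In the sebaceous clusters of the first clustering, among cells with at most 2 members, Krt28 stood at 6.23 CPM in SAR131675 (4.82 to 7.93), 4.61 in diet control (3.25 to 6.36), 11.8 in LNR (9.58 to 14.3) and 12.4 in sham (10.2 to 14.9). In basal keratinocytes it stood at 0.856, 0.320, 0.508 and 0.235 CPM, and in fibroblasts at 0.822, 0.227, 1.23 and 0.407 CPM. Krt27 stood at 4.72, 5.99, 5.24 and 3.24 CPM in the sebaceous cells and at 1.47, 0.689, 0.305 and 0.752 CPM in basal keratinocytes. For both genes the intervals of these sebaceous and basal cells were apart in all 4 libraries. For Krt27 this did not hold in the finer clustering of the LNR pair, over all cells. The sebaceous class then stood at 0.396 CPM in LNR (0.0480 to 1.43) and 0.332 in sham (0.0402 to 1.20). Basal keratinocytes stood at 0.305 (0.112 to 0.663) and 0.798 (0.465 to 1.28). A cluster of both basal and sebaceous names held 12.7 CPM. In the diet pair an unnamed cluster scoring highest for basal markers held 7.70, and the one of erythroid and sebaceous names 1.40. Krt28 and Krt27 share stretches of sequence near their ends with Krt25 (given below), and how reads divide between the paralogs was not tested. A Krt28 UMI was present in 51 of 803, 31 of 729, 61 of 579 and 72 of 648 sebaceous cells, and no cell held more than 6. Krt73, otherwise the closest companion of Krt28, had 2, 0, 0 and 0 UMIs there. A count of 0 allows up to 3 UMIs.

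Of 13 regulators of the IRS tested, 8 were at least 2-fold higher in member-rich cells than in the other epithelial cells in all 4 libraries (Gata3, Cux1, Dlx3, Lef1, Msx2, Foxn1, Notch1 and Ovol1) and none was 2-fold lower in all 4, beside 2.51% of 14992 genes that were at least 2-fold higher in all 4 and 6.60% that were at least 2-fold lower in all 4. The other 5 did not pass: Trps1 had log2 ratios of 0.84 to 1.07, Sox21 of 0.90 to 1.51 and Grhl3 of 0.20 to 0.58, Hoxc13 was at −0.12 in SAR131675, and the receptor Bmpr1a was at −0.01 in LNR and 0.05 in sham. The median of the regulators' mean log2 ratios was 1.74, against −0.06 over all genes tested. Msx2, a homeobox factor of the matrix, stood at 123 against 13.1 CPM in SAR131675, 138 against 6.56 in diet control, 107 against 7.71 in LNR and 108 against 7.68 in sham. Dlx3 stood at 285 against 20.7 CPM in diet control, 161 against 12.0 in LNR and 125 against 10.9 in sham, with a log2 ratio of 3.32 in SAR131675. Gata3 stood at 761 against 141, 715 against 150.2, 551 against 89.3 and 437 against 89.0 CPM. For each of these 3 genes the member-rich cells were higher in all 4 libraries. Member-rich cells were picked by their members, so other genes of the same cells are described here and not tested. They also had to lie within the limits and in the follicle cluster, which was formed on other genes that may include these regulators. Neighbouring follicle cells were not compared apart. In the diet pair hair matrix markers scored 0.74 in the hair shaft cluster and 0.65 in the follicle cluster.

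Of 11 cross-linking and maturation genes tested, 2 were at least 2-fold higher in all 4 libraries and 4 at least 2-fold lower. Padi3 stood at 32.7 against 0.778 CPM in SAR131675, 23.0 against 0.272 in diet control, 35.0 against 0.182 in LNR and 35.5 against 0.629 in sham. Ctsc, the protease cathepsin C, was the other higher gene (220.5 against 26.4, 183 against 19.7, 85.8 against 14.4 and 179.8 against 13.3 CPM). Tgm3, a transglutaminase known to cross-link trichohyalin, was among the lower genes (22.6 against 230.3, 39.2 against 273, 19.1 against 174 and 28.0 against 183 CPM), together with the kallikrein proteases Klk5 and Klk7 and the protease inhibitor Cst6. Padi3 was thus higher, and Tgm3 lower, in the member-rich cells of all 4 libraries. These counts leave out barcodes outside the limits. Over all barcodes with at least 3 members, Cst6 stood at 2288 CPM in the Krt25 and Krt71 group of SAR131675. This was above the 1569 CPM of the other epithelial cells there. In that group of diet control, LNR and sham Cst6 stayed lower (745 against 1823, 220.1 against 3399.7 and 1074 against 3891 CPM).

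Trichohyalin belongs to the fused S100 proteins of the epidermal differentiation complex, and its relatives mostly had the opposite distribution. Of 5 relatives tested, only Crnn (cornulin) was at least 2-fold higher in all 4 libraries (40.9 against 0.229 CPM in SAR131675, 24.3 against 0.826 in diet control, 5.30 against 0.182 in LNR and 26.4 against 0.342 in sham). Rptn, Hrnr, Flg and Flg2 were at least 2-fold lower in all 4. Flg, the filaggrin of the granular layer, stood at 20.2 against 864, 12.8 against 1161, 0 against 248 and 1.65 against 319 CPM. Tchhl1, trichohyalin-like 1, had too few UMIs to be compared and was listed at 0 in the member-rich cells of all 4 libraries. Over all barcodes with at least 3 members it stood at 41.4 CPM in SAR131675 and 21.3 in diet control in the Krt25 and Krt71 group, and at 0 in that group of LNR and sham and in the Krt28 and Krt73 group of all 4 libraries.

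Keratins of the neighbouring layers did not move one way in member-rich cells. Of 11 hair shaft keratins tested, 0 were at least 2-fold higher in all 4 libraries and 2 (Krt36 and Krt84) were 2-fold lower. Krt35, the first keratin of the hair cortex, split by pair: it was higher in member-rich cells of LNR (276 against 33.0 CPM) and sham (214 against 49.5) and lower in those of SAR131675 (8.41 against 84.4) and diet control (4.06 against 27.4). In the LNR pair the follicle cluster also had Krt35 among its leading genes, and hair shaft markers followed there at 0.37. Of 10 companion layer and medulla genes tested, Krt75, the keratin of the companion layer, was at least 2-fold higher in all 4 libraries (226 against 19.6, 281 against 9.80, 66.8 against 15.6 and 544 against 12.4 CPM in SAR131675, diet control, LNR and sham). Of the same 10, 4 (Krt6b, Krt79, Krt7 and Krt18) were at least 2-fold lower in all 4.

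The 15 genes whose levels across epithelial cells were most like the summed members, among 17236 genes, were Prr9, Fbp1, Golga7b, Cux1, Crym, Nrp2, Cdh6, Padi3, Dlx3, Dusp2, Msx2, Slc39a8, Nkd2, Csgalnact1 and Crnn. Prr9, a proline-rich protein of the epidermal differentiation complex, had the highest mean Pearson r at 0.42 (0.39 in LNR, 0.47 in sham, 0.51 in SAR131675 and 0.30 in diet control). Fbp1, the gluconeogenic enzyme fructose-1,6-bisphosphatase, followed at 0.40, and Golga7b at 0.38. Fbp1 was also among the 3 genes closest to Krt73 (0.67, 0.55 to 0.76). The list depended on the measure: 5 of the 15 stayed with Spearman correlation and 5 with correlation over clusters, Golga7b with both, and Prr9 and Fbp1 with neither. The values ranged down to 0.21 for Crnn and describe sparse counts, with no test.

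The paralogs are alike in sequence, which limits how far single genes can be told apart. In GENCODE vM21 transcripts, 201 of 1940 windows of 50 bases in Krt25 and 167 of 1501 in Krt27 occur in another member. In the last 600 bases, where 3′ tags fall, 83 of 551 windows of Krt27 and 38 of 551 of Krt28 were shared, all of them with Krt25, though not with its own last 600 bases, and 4 also between Krt27 and Krt28. None was shared for Krt25, Krt26, Krt71, Krt72, Krt73 and Tchh. Levels of Krt27 and Krt28 are therefore less certain than the others.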

How the data were processed

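Digit tissue was dissociated and run on the 10x Genomics 3′ platform; 4 libraries, 1 per condition, were read. The deposited values are UMI counts per gene and barcode, which the authors made with Cell Ranger; the labels give version 6.1.2 and build GRCm39 for all, whereas the file headers give 6.1.2 for LNR and sham and 8.0.1 for the diet pair. Limits on cells (200 to 5500 genes, at most 30000 UMIs, at most 10% mitochondrial UMIs) are those stated for the LNR experiment and were applied to both pairs. Per pair, with no batch correction, counts were scaled to 10000, and about 2000 variable genes without the members gave 30 principal components and Leiden clusters (scanpy 1.11.5; resolution 0.7, then 1.0 within epithelium); classes were named from marker lists. Levels are summed UMIs as CPM with exact Poisson intervals, shares have Clopper-Pearson intervals, and ratios have exact conditional intervals. With 1 library a group no test was made. The ratio code was checked on simulated counts. List genes needed 20 UMIs in member-rich plus other epithelial cells of each library, and their log2 ratios used CPM + 1. All members, list genes with 20 UMIs and the 15 genes most correlated with the summed members and the 3 most correlated with each member were eligible for naming; genes picked after their values were seen are marked in the text. The members and lists were chosen with earlier results of these data known. Doublets were left in. 1 infundibulum marker is not reported here.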

Additional observations from a re-analysis of the deposited data

Results flagged for a closer look

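Barcodes outside the limits on cells, which the values for kept cells leave out, held member levels above those of the control library in several cases, by counting intervals that were apart. In the diet pair the summed members stood at 1042 CPM in the 9388 such barcodes of SAR131675 and at 910.0 CPM in the 6801 of diet control. Krt25 stood at 278 against 246 CPM, and Tchh at 292 against 216 CPM. Krt28, Krt73, Krt26 and Krt72 differed by more, with Krt28 at 42.7 against 23.3, Krt73 at 32.2 against 15.2, Krt26 at 1.40 against 0.597 and Krt72 at 4.17 against 0.0822 CPM. A single SAR131675 barcode held 272 of these Krt26 UMIs and 716 of these Krt72 UMIs; without it Krt26 stood at 0.293 CPM, lower than in diet control, and Krt72 at 1.26 CPM. A further barcode held 256 of the 309 Krt72 UMIs left, and without both Krt72 stood at 0.216 CPM. In the LNR pair Krt72 stood at 1.56 CPM in LNR, with its 40 UMIs in 1 barcode, against 0.434 CPM in sham. The summed members were lower in LNR in these barcodes (191 against 573 CPM), as were Krt25 (61.9 against 187) and Krt71 (48.4 against 180.0). Krt27 and Krt71 were not higher in SAR131675 in these barcodes. The part that doublets have in these barcodes was not tested.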

How the results depend on the processing

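No paired analysis was possible because each group has 1 library. The directions of the summed level held in both experiments under every setting run. For SAR131675 over diet control the log2 ratio in kept cells was 0.58 with no limits on cells, 1.11 at 2000 UMIs per cell and 0.79 without the top 1% of cells; in epithelial cells it was 0.49, 1.03 and 0.78, 1.63 with a mitochondrial limit of 20% and 1.65 without the 10 strongest cells. For LNR over sham it was −1.41, −1.32 and −1.11 in kept cells, −1.52 with doublets left out, −1.27 without the mixed cluster and −1.31 without the 10 strongest cells; in epithelial cells the values were −1.20 (thinned), −0.99 (top 1% out), −1.24 (mixed cluster out) and −1.16 (10 strongest out). Of 108 alternative values for single members, 57 stayed within the counting interval, 49 moved and 2 reversed; 3 changed sign, all for SAR131675 over diet control. Krt72 was at −0.01 at 2000 UMIs, from 0.20 with an interval that includes 0. Krt26 was at −0.12 with no limits and without the barcode with the most Krt72 UMIs, and −0.15 without the 2 highest. The cause of the other moves was not tested.

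The follicle cluster's share depended on how it was drawn. In the order SAR131675, diet control, LNR and sham, its share of cells was 3.25%, 1.48%, 1.63%, 1.65% with no limits, 3.73%, 1.70%, 2.37%, 2.65% at resolution 0.5, 2.61%, 1.21%, 1.42%, 1.49% at 1.5, 2.65%, 2.83%, 1.60%, 1.58% with libraries clustered alone (where the diet order reversed), 3.76%, 1.72%, 1.94%, 2.02% without doublets, and 1.57%, 0.699%, 0.509%, 1.77% when cells with at least 3 members took its place. Its share of member UMIs was 84.2%, 65.8%, 67.7%, 69.9%, 85.2%, 80.7%, 62.0%, 55.9%, 84.7%, 80.1%, 59.0%, 54.7%, 84.9%, 80.9%, 61.2%, 13.2%, 86.5%, 80.3%, 69.3%, 55.0% and 91.7%, 80.3%, 83.8%, 90.9% under the same settings. The share of cells with any member UMI was 25.9%, 17.4%, 9.41%, 15.4% as reported, 7.40%, 4.91%, 3.63%, 6.69% at 2000 UMIs and 3.69%, 2.34%, 1.5%, 3.01% with at least 3 UMIs. The share with at least 3 members was 2.20%, 0.967%, 0.540%, 1.77% with no limits, 0.826%, 0.331%, 0.335%, 0.635% at 2000 UMIs, and, without the mixed cluster, 0.745% in sham, 0.840% with no limits and 0.487% (LNR 0.335%) at 2000 UMIs. Of the 15 genes most like the members, 5 were kept with Spearman and 5 with correlation over clusters. The settings without the mixed cluster, the 10 strongest cells or the Krt72 barcodes, and all settings for cells with at least 3 members, were chosen after seeing the data.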
